A study of Mus musculus with 8 samples.

Results

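Pancreata of *Pfkfb3* cKO and WT mice were compared after FAEE-SAP, the fatty acid ethyl ester model of severe acute pancreatitis that is induced with palmitoleic acid (POA) and ethanol. The comparison used 4 of the 8 RNA-Seq libraries of the series, 2 labeled cKO and 2 labeled WT, and they were chosen by their labels for genotype and treatment. The other 4 libraries, 2 cKO and 2 WT, came from mice given saline and gave each gene its genotype difference without pancreatitis. All mice were male and 8 weeks old, and pancreata were taken 24 hours after treatment. In the methods of the study, cKO mice carried floxed *Pfkfb3* and Cre expressed under the *Pdx1* promoter, which acts in the progenitors of acinar, duct, and islet cells, so leukocytes, vessels, and stroma of the pancreas keep the gene. WT mice were purchased and are not stated to be littermates of the cKO mice, so genotype and origin of the mice cannot be told apart. No label says whether the 2 libraries of a group came from separate mice, so p-values measure the spread between these libraries, which may be technical.

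PFKFB3 makes fructose-2,6-bisphosphate, an activator of glycolysis. Acinar cells make up most of the pancreas and fill it with mRNA for digestive enzymes, which are folded in the endoplasmic reticulum (ER), packed into zymogen granules, and released on secretagogue signals. In acute pancreatitis, injured acinar cells lose this secretory program and turn on stress, chemokine, and acute-phase genes, and neutrophils and monocytes enter the tissue. The changes are described below by function, with the digestive enzymes only as a frame for the others.

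The authors deposited RPKM, the reads on a gene relative to its exon length and to all mapped reads, which is a share of each library and shifts with its most abundant genes. The 27 digestive enzyme genes called below took 72.6% and 73.2% of the summed RPKM in the cKO FAEE-SAP libraries, 57.2% and 59.6% in WT, and 76.4% to 79.9% with saline. RPKM was therefore scaled between libraries by the median of the ratios to their geometric mean, and levels are given as scaled RPKM. Before scaling, log2 fold changes over the tested genes had a median of -0.91, and after it -0.01. Library totals worked out from the lowest values were 22900000 to 37700000 reads, so that a single read in 2 kb of exon stood for an RPKM of 0.0133 to 0.0219. *Pfkfb3* itself did not separate the labels, with scaled RPKM of 2.42 and 4.01 in cKO and 2.61 and 4.58 in WT after FAEE-SAP. Values of a whole gene cannot show whether a few of its exons were deleted, so genotype means the label throughout.

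With FAEE-SAP, 11008 genes were tested, and 95 of them (0.863%) were called higher and 45 (0.409%) lower in cKO than in WT, by limma, where a call needed a change of 2-fold or more and a p-value below 0.05 after Benjamini-Hochberg adjustment. Without scaling, 73 genes were called higher and 4354 lower, and with quantile normalization 43 were higher and 35 lower. The 95 genes that rose held 27 digestive enzymes and their precursors, 15 immunoglobulin genes, 11 genes of the secretory pathway and granule, 11 of amino acid and one-carbon metabolism, 6 of islet hormones and granules, 2 myeloid genes, and 23 others. The 45 genes that fell held 10 genes of leukocyte chemoattractants, their receptors, and myeloid cells, 8 of the acute phase, 6 of the epithelial surface, 6 of innate signaling and AP-1, 5 of the cytoskeleton and stress, and 10 others. Each gene was put in its class by known function after the calls were seen, so the classes are a description and carry no test. Leaving out the scaling shifted all genes by about the same amount, less than a 2-fold change, so it could not turn a called gene. With quantile normalization 135 of the 140 genes kept their direction, and the 5 exceptions were the digestive enzymes *Pnlip*, *Cela3b*, *Try4*, *Amy2a1*, and *Ctrl*.

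Calls rested on both WT libraries. Without WT replicate 1 or WT replicate 2 no gene passed the adjusted threshold in limma, with smallest adjusted p-values of 0.0772 and 0.108, while 1100 and 543 genes passed 2-fold at an unadjusted p-value below 0.05. The 120 of the 140 genes that were still tested in each case kept their direction and a 2-fold change, which is a description, since they were chosen from these libraries. With a single WT library the spread came from the cKO pair and limma's prior, and the lone library was assumed to vary alike. Without cKO replicate 1, 75 genes were called higher and 64 lower, and without cKO replicate 2, 51 were higher and 59 lower. No gene was called without the filter on low values either, where the smallest adjusted p from limma was 0.0762.

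**Figure D1:**
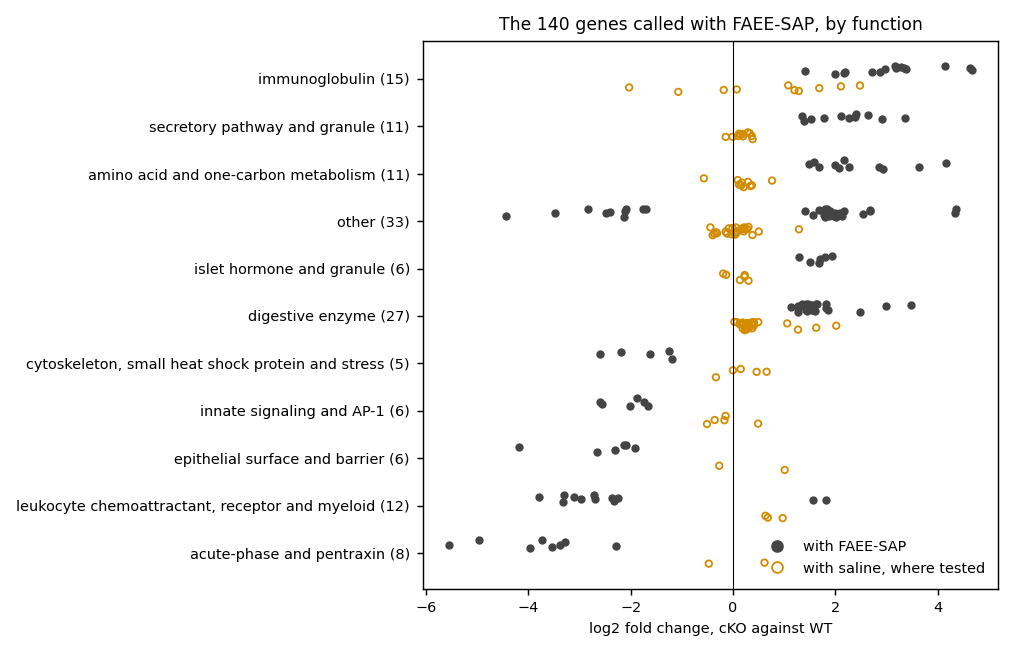
Log2 fold change of cKO against WT (x axis) for the 140 genes called with FAEE-SAP, by class of function (y axis, number of genes), with filled points for FAEE-SAP and open points for the same genes with saline where they reached the RPKM minimum. The filled points lie beyond 1 or -1 by the rule of the call, and the open points lie between those limits apart from 8 immunoglobulin genes, 4 digestive enzyme genes, *Pigr*, and *Nnt*. With quantile normalization 5 digestive enzyme genes turn direction.

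With saline, 8715 genes were tested between cKO and WT, and 0 (0.0%) passed in limma, where 187 were below 0.05 before adjustment and the smallest adjusted p was 0.453. Of the 95 genes higher with FAEE-SAP, 88 were tested with saline, and their median log2 fold change there was 0.22, with 70 above 0 and 18 below. Of the 45 genes lower with FAEE-SAP, only 18 reached the RPKM minimum with saline, and their median was 0.10, with 8 below 0 and 10 above. The other 27 did not reach the minimum in 2 of the saline libraries. The difference between the genotype effects was tested over all 8 libraries as the interaction of genotype and treatment, and 8 of 11133 genes (0.0719%) passed in limma. When each of the 8 libraries was left out in turn the count was 0 to 4, and it was 0 without cKO FAEE-SAP replicate 1, cKO FAEE-SAP replicate 2, or WT saline replicate 1. The 8 genes included *Saa3*, *Fpr1*, and *Fut2*, which are described below with *Tmed6* and *Gal*. For a gene outside these 8, a call with FAEE-SAP and none with saline does not show that the genotype effects differ.

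**Figure D2:**
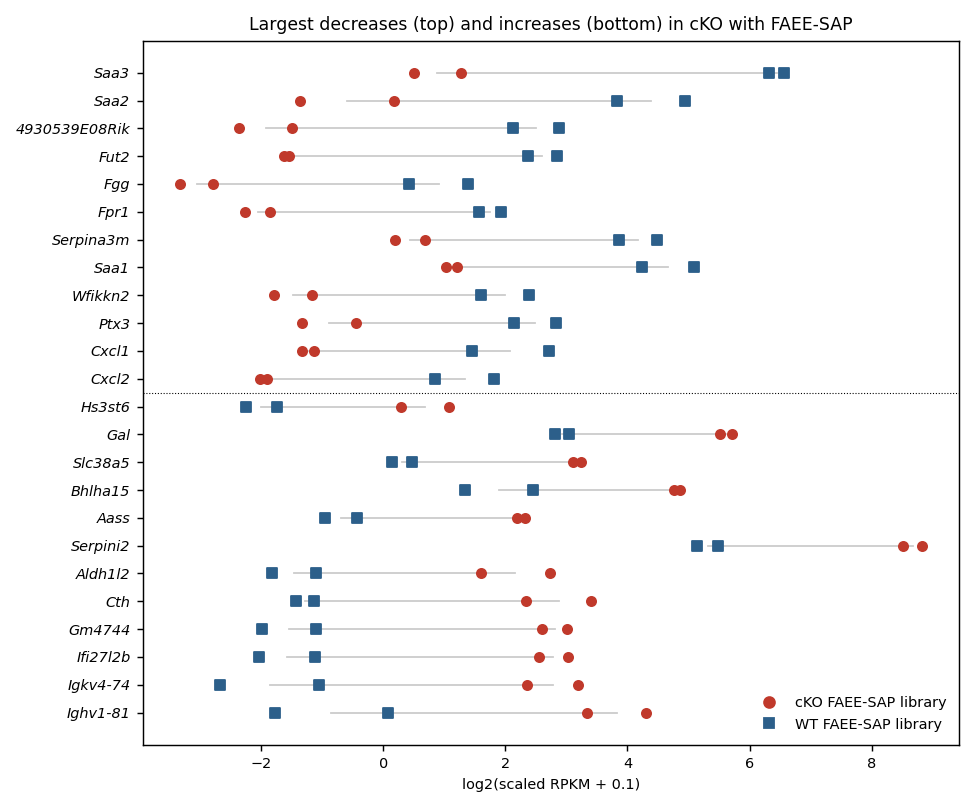
Log2 of scaled RPKM + 0.1 (x axis) in each FAEE-SAP library for the 12 largest decreases (top) and 12 largest increases (bottom) in cKO by the naming rule (y axis). The rule leaves out genes classed as digestive enzymes and takes at most 2 immunoglobulin segments, so larger increases of other segments are not drawn. Circles are the 2 cKO and squares the 2 WT libraries, the gray line joins their means, and the libraries of the genotypes do not overlap for any of the 24 genes, as the rule required.

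Acute-phase genes held the 2 largest decreases. These genes encode plasma and tissue proteins that rise in inflammation, among them the serum amyloid A proteins, the fibrinogen chains, and serpin protease inhibitors. *Saa3*, a serum amyloid A gene expressed outside the liver in inflamed tissue (chromosome 7, 46711998 to 46715700, GRCm38), had scaled RPKM of 1.31 and 2.31 in the cKO and 79.8 and 94.6 in the WT FAEE-SAP libraries. Its log2 fold change was -5.56 (SE 0.30, adjusted p = 0.0110 from limma). With all 8 libraries scaled together, *Saa3* was 5.06 and 3.79 in cKO against 1.6 and 4.69 in WT with saline, and it was 0.943 and 1.63 in cKO against 56.6 and 66.4 in WT with FAEE-SAP. Only the WT FAEE-SAP libraries were high, and the interaction was -6.17 (SE 0.67, adjusted p = 0.0413 from limma). *Saa1* (46740497 to 46742980) had 2.22 and 1.93 in cKO and 18.8 and 33.9 in WT, and its neighbor *Saa2* (46751790 to 46754313) had 1.04 and 0.289 against 14.1 and 30.5. These genes are close paralogs that could share reads, and all 3 fell, by log2 fold changes of -3.54 for *Saa1* and -4.97 for *Saa2*. The fibrinogen gene *Fgg* had about 2 reads in the cKO libraries together and 320 in WT. With reads corrected for library totals and scaling, the ratio of WT to cKO was 86.7 (95% exact interval 23.8 to 719, counting error only).

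The serpin genes *Serpina3m* and *Serpina3n*, protease inhibitors of the acute phase on chromosome 12, fell as well. *Serpina3m* had 1.04 and 1.5 in cKO and 14.5 and 22.3 in WT (log2 fold change -3.74, SE 0.31, adjusted p from limma 0.0156), and *Serpina3n* had 32.8 and 35.4 against 140 and 197 (-2.29, SE 0.22, adjusted p from limma 0.0180). *Ptx3* encodes a long pentraxin made by stromal and myeloid cells, and it had 0.636 and 0.297 in cKO and 7.0 and 4.33 in WT (-3.38, SE 0.40, adjusted p from limma 0.0272). Of the 29 genes of an acute-phase list, 20 were tested, 18 had a log2 fold change below 0, and 7 fell past the threshold, none rose. Over all genes tested, 0.409% were called lower. Members such as *Fgg* and *Fga* reached the RPKM minimum in the WT libraries alone, which favors a value below 0. The count of 18 and the list median therefore do not by themselves show a decrease. The list median was -2.14, and -1.15 with a pseudocount of 1. It was below 0 with all 3 other scalings and -1.26 and -1.47 without WT replicate 1 and WT replicate 2. *Lcn2*, a siderophore-binding protein, had 30.3 and 97.4 in cKO and 364 and 368 in WT (adjusted p from limma 0.0819), and *Hp*, which encodes haptoglobin, had 26.2 and 5.18 against 69.7 and 115 (adjusted p from limma 0.130). The values of *C3*, *Serpina3g*, and *Serpina3f* differed less, with log2 fold changes of -0.40 to 0.22, and *Itih4*, an inhibitor heavy chain of plasma, was higher in both cKO libraries (log2 fold change 1.35, adjusted p from limma 0.126). The liver markers *Alb*, *Apoa1*, *Apoc3*, *Apoh*, and *Cps1* were at or near 0 in all 4 libraries, with *Alb* highest at 0.330 in a cKO library. The 2 other liver markers were tested, and *Ahsg* was not called (0.360 and 0.702 in cKO, 0.597 and 1.01 in WT), while *Ttr*, which islets also make, rose.

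The upstream sequences of *Saa3* and *Saa1* are shown because a C/EBP motif occurred before the start of most of these genes. C/EBP proteins are transcription factors of the acute-phase response. The motif TTGCNNAA, searched on both strands in the 250 bases before the start site, was present in 5 of the 7 called acute-phase genes with a promoter entry (71.4%; *Fga*, *Ptx3*, *Saa1*, *Saa2*, and *Saa3*) and in 10.8% of all genes with one (9.05% of those tested). A match is a description and not a binding site. The sequences are from RefSeq, build GRCm38.p6, minus strand, written 5′ to 3′ up to the base before the start site, with the motif in capitals. They span chr7:46715677-46715926 for *Saa3* and chr7:46742981-46743230 for *Saa1*.
Saa3: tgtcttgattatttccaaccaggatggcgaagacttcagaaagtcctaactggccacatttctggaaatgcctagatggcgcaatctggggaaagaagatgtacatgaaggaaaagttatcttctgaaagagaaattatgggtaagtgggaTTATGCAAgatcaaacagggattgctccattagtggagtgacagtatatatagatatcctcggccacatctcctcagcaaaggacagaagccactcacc
Saa1: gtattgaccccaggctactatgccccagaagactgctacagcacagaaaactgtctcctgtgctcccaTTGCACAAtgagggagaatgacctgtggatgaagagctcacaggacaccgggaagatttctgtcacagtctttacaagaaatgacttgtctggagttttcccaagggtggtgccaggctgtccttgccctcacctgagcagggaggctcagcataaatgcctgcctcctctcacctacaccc
The motif begins 99 bases before the start site of *Saa3* and 182 bases before that of *Saa1*.

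Of 32 genes tested in a list of chemokines, their receptors, and formyl peptide receptors, 5 fell in cKO. *Cxcl1* and *Cxcl2*, neighboring chemokine genes on chromosome 5 whose products attract neutrophils through CXCR2, were low in cKO. *Cxcl1* was 0.355 and 0.296 in cKO against 6.43 and 2.64 in WT (log2 fold change -3.32, SE 0.44, adjusted p from limma 0.0377), and *Cxcl2* was 0.147 and 0.167 against 1.71 and 3.41 (-3.30, SE 0.38, adjusted p from limma 0.0267). *Fpr1* and *Fpr2*, neighbors on chromosome 17, encode formyl peptide receptors with which phagocytes sense bacterial and mitochondrial peptides. *Fpr1* was 0.109 and 0.178 in cKO against 3.71 and 2.87 in WT, or 3 and 5 reads against about 162 and 169 (log2 fold change -3.80, SE 0.30, adjusted p from limma 0.0156). With all 8 libraries scaled together it was 0.0967 and 0.108 in cKO and listed at 0 in both WT libraries with saline, and its interaction was -4.60 (SE 0.43, adjusted p from limma 0.0380). *Fpr2* was 0.261 and 0.181 against 2.08 and 2.74. *Ccl3*, a chemokine for monocytes and neutrophils, had 3 reads in cKO and 92 in WT. *Acod1*, which encodes the itaconate-making enzyme of activated macrophages, had 1 and 124 reads. With reads corrected for library totals and scaling, the ratios of WT to cKO were 16.6 for *Ccl3* (95% exact interval 5.51 to 82.1) and 67.2 for *Acod1* (95% exact interval 11.8 to 2675).

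Some genes expressed by neutrophils and macrophages also fell, while most macrophage markers tested had a log2 fold change above 0. The calprotectin subunit gene *S100a8* was 6.12 and 3.73 in cKO against 26.2 and 22.4 in WT (log2 fold change -2.32, SE 0.28, adjusted p from limma 0.0302). The neutrophil gene *Retnlg* was 1.91 and 1.39 against 7.24 and 9.21 (-2.26, SE 0.26, adjusted p from limma 0.0255). *Cd14*, a coreceptor for lipopolysaccharide, was 3.35 and 3.89 against 20.1 and 18 (-2.37, SE 0.20, adjusted p from limma 0.0156), and *Il1rn*, the interleukin 1 receptor antagonist, was 0.263 and 0.196 against 1.86 and 2.20 (-2.69, SE 0.28, adjusted p from limma 0.0215). In bulk tissue, fewer cells of a type and less RNA per cell cannot be told apart. Of 13 neutrophil markers 7 were tested, all 7 had a log2 fold change below 0, and *S100a8* and *Retnlg* were called, while *Ly6g*, *Mpo*, *Elane*, *Camp*, *Ltf*, and *Stfa1* were under the minimum. The summed level of the 13 was 28.3 and 19.7 in cKO against 85.8 and 81.5 in WT. Of 9 macrophage markers tested, *Cd14* fell, and 7 had a log2 fold change above 0 without passing, with a list median of 0.65 that was -0.29 as deposited, such as *C1qa* (28.3 and 24.6 in cKO, 14.6 and 13 in WT) and *Mrc1* (5.79 and 5.99 against 1.40 and 3.21). The part of these cell markers in the other decreases was not tested.

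Not all chemokines followed. In the same list of 32 genes, 21 had a log2 fold change below 0 and 11 above, with a median of -0.58 against -0.01 for all genes, and the median turned to 0.06 without cKO replicate 2 and to 0.01 without WT replicate 1. The 5 that fell were *Cxcl1*, *Cxcl2*, *Ccl3*, *Fpr1*, and *Fpr2*, and 1 rose. That gene, *Ccl6*, encodes a chemokine of macrophages and was 44.1 and 31.4 in cKO against 12.9 and 12.2 in WT (log2 fold change 1.56, SE 0.23, adjusted p from limma 0.0451). With saline *Ccl6* had a log2 fold change of 0.97. *Cxcl5*, an epithelial neutrophil chemokine, was 0.544 and 0.101 against 9.53 and 3.12 and did not pass (adjusted p from limma 0.0779). The monocyte chemokine gene *Ccl2* overlapped between the genotypes, at 4.20 and 1.53 against 7.20 and 2.57, and *Ccl8* was 4.44 and 1.93 in cKO against 0.238 and 0.440 in WT (adjusted p from limma 0.0626). The other called myeloid gene that rose was *Fcna*, which encodes a ficolin of macrophages, at 7.87 and 5.38 against 1.86 and 1.72.

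The upstream sequences of *Cxcl1* and *Cxcl2* are shown because both hold a kappaB motif, the recognition element of NF-κB transcription factors. The motif GGANTTTCC, on either strand, was found in the 250 bases before the start of 3 of the 11 called genes of this class with a promoter entry (27.3%; *Acod1*, *Cxcl1*, and *Cxcl2*), against 1.25% of all genes with one and 1.54% of those tested. Both sequences are on the plus strand of GRCm38.p6 in RefSeq, chr5:90890995-90891244 for *Cxcl1* and chr5:90903649-90903898 for *Cxcl2*, with the motif in capitals.
Cxcl1: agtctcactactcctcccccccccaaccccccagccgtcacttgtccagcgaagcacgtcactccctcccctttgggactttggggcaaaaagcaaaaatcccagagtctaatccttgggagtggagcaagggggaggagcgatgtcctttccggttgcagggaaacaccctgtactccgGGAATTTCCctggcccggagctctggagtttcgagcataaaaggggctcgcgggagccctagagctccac
Cxcl2: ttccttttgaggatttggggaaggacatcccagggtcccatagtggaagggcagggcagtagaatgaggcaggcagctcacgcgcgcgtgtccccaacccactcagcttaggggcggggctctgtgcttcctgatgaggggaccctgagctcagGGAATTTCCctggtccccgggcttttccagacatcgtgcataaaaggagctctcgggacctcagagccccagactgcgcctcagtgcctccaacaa
The motif begins 70 bases before the start site of *Cxcl1* and 96 bases before that of *Cxcl2*, and no match in the other 8 genes says only that these letters are not in their windows.

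The genes that fell included 6 of innate signaling and AP-1, grouped after the calls were seen. *Myd88*, the adaptor of Toll-like and interleukin 1 receptors, was 3.92 and 3.40 in cKO against 11.3 and 13.6 in WT (log2 fold change -1.74, SE 0.22, adjusted p from limma 0.0317). *Tifa*, an adaptor that joins TRAF6 in NF-κB activation, was 1.54 and 1.63 against 11 and 9.20 (-2.59, SE 0.22, adjusted p from limma 0.0156). Feedback genes were lower as well, with *Tnip1*, which binds the ubiquitin-editing protein A20, at 2.76 and 2.26 against 9.35 and 6.96, and *Ptpn2*, a phosphatase of JAK and STAT proteins, at 1.70 and 1.61 against 5.14 and 7.83. In a list of interleukin 6 and STAT3 genes none of 14 passed, with 5 above 0 and 9 below, and the largest difference was in *Socs3*, the STAT3 feedback inhibitor, at 7.33 and 2.75 against 17.6 and 12.4 (adjusted p from limma 0.154). *Il6* itself was under the minimum. Of 11 interleukin 1 and inflammasome genes only *Il1rn* passed, with 5 above 0 and 6 below, and *Il1b* was 0.836 and 0.321 against 1.91 and 1.87 (adjusted p from limma 0.130). Interferon-stimulated genes divided. Of 23 interferon-stimulated genes tested, 10 were above 0 and 13 below, and 1 passed, *Ifi27l2b*, which rose.

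*Junb*, a subunit of the AP-1 transcription factor, was the only immediate early gene of 17 tested that passed. It was 5.81 and 5.95 in cKO against 20.7 and 28.3 in WT (log2 fold change -2.02, SE 0.23, adjusted p from limma 0.0244), and the list median was -0.65 (-0.28 without WT replicate 2), with 13 genes below 0. *Fos* overlapped between the genotypes and *Myc* was 5.39 and 9.06 in cKO against 2.70 and 4.01 in WT, neither called. Of 15 p53 target genes, 13 were below 0 with a median of -1.0, and only *Eda2r*, a receptor of the TNF receptor family, passed, at 0.123 and 0.232 against 1.91 and 1.19 (-2.57, SE 0.37, adjusted p from limma 0.0450). The p53 targets *Aen* (1.77 and 1.59 against 3.78 and 4.34) and *Zmat3* (0.752 and 0.872 against 3.05 and 1.92) were lower in both cKO libraries without being called. Libraries of the genotypes did not overlap with cKO lower for 8 of the 15 p53 targets and for 25.7% of all genes tested. With cKO higher this held for 0 of the 15 and for 26.1% of all genes. *Cdkn1a*, the cell cycle inhibitor p21, had a log2 fold change of -0.24.

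A group of 5 genes put together after the calls were seen, with roles in stress and the cytoskeleton, fell in cKO, while the lists of stress genes held few calls. *Nupr1*, a chromatin protein that is strongly induced in pancreatitis, was 270 and 395 in cKO against 996 and 1024 in WT (log2 fold change -1.63, SE 0.22, adjusted p from limma 0.0387). *Hspb1*, a small heat shock protein that binds actin, was 19.2 and 29.5 against 162 and 131 (-2.61, SE 0.26, adjusted p from limma 0.0188). The cytoskeleton genes *Actg1*, *Tpm4*, and *Stmn1*, which encode gamma actin, a tropomyosin, and stathmin, also fell, with *Stmn1* at 1.83 and 2.81 against 10.9 and 10.6. Of 12 heat shock genes, which included the mitochondrial chaperonin gene *Hspd1*, only *Hspb1* passed, with 4 above 0 and 8 below, and *Hsp90ab1* and *Hspd1* had log2 fold changes of 0.01 and 0.17. In the integrated stress response list only *Nupr1* of 14 genes passed, with 6 above 0 and 8 below, and *Atf4* was 45.0 and 37.6 against 32.3 and 42.4. In the list of ER chaperones and the unfolded protein response, 15 of 26 genes were above 0 and 11 below, with a median of 0.10 that was -0.85 as deposited and -0.07 without WT replicate 1. *Xbp1*, the transcription factor of that response, was 136 and 95.6 in cKO against 207 and 170 in WT and was not called (adjusted p from limma 0.186), and *Ero1lb*, the oxidase for disulfide bonds of secreted proteins, was the only member called.

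Among the genes that fell were 6 of the epithelial surface, grouped after the calls were seen. *Fut2* makes the alpha-1,2-fucose on mucosal glycans, and it was 0.225 and 0.245 in cKO against 5.06 and 7.11 in WT (chromosome 7, 45648591 to 45666394; log2 fold change -4.19, SE 0.27, adjusted p from limma 0.0132). With saline and all 8 libraries scaled together it was at most 0.0468 in every library, and the interaction was -4.17 (SE 0.45, adjusted p = 0.0413 from limma). *Pigr*, the receptor that carries polymeric IgA and IgM across epithelia, was 1.61 and 1.72 in cKO against 11.3 and 10.8 in WT (-2.67, SE 0.20, adjusted p from limma 0.0152). The keratin gene *Krt20* was 6.41 and 5.57 against 21.7 and 32.8 (-2.14, SE 0.26, adjusted p from limma 0.0291), and *Ceacam1*, *Tgm1*, and *Slc26a9*, which encode an adhesion molecule, a transglutaminase, and a chloride transporter, fell by log2 fold changes of 1.92 to 2.30. Among 17 genes of keratins and ductal metaplasia only *Krt20* passed. Libraries of the genotypes did not overlap for 9 of the 17 with cKO lower and for 5 with cKO higher. Over all genes tested this held for 25.7% and 26.1%. *Cldn7* (4.29 and 6.74 against 18 and 15.5), *Epcam* (11.1 and 18.3 against 34.4 and 33.7), and *Krt8* (72.3 and 104 against 161 and 197) were lower in both cKO libraries without passing, while *Sox9*, a transcription factor of duct cells, overlapped between the genotypes. In a list of mucins, trefoil factors, and mucosal glycan genes, 7 of 17 were tested, *Fut2* and *Pigr* fell and 1 rose, and the median of -0.56 turned to 0.61 without cKO replicate 2 and to 0.95 without WT replicate 1. The gene that rose, trefoil factor 2 (*Tff2*), encodes a mucosal peptide of the acinar secretion and was 782 and 734 in cKO against 260 and 266 in WT (log2 fold change 1.53, SE 0.15, adjusted p from limma 0.0184).

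The genes that rose included 11 of the secretory pathway and granule, grouped after the calls were seen, while most members of the lists for these functions were not called. The cargo receptors *Tmed6* and *Tmed11* belong to the p24 family, which sorts proteins between the ER and the Golgi apparatus. *Tmed6* (chromosome 8, 107061476 to 107065644) was 166 and 169 in cKO against 39.3 and 38.1 in WT (log2 fold change 2.11, SE 0.16, adjusted p from limma 0.0152). With all 8 libraries scaled together it was 247 and 216 in cKO against 204 and 195 in WT with saline, and 119 and 119 in cKO and 27.9 and 26.8 in WT with FAEE-SAP. Levels with FAEE-SAP were below those with saline in both genotypes and lowest in WT, and the interaction was 1.91 (SE 0.20, adjusted p = 0.0413 from limma). *Tmed11* was 93.5 and 105 against 14.6 and 17.2 (log2 fold change 2.64, SE 0.19, adjusted p from limma 0.0152). The other p24 genes of the list, *Tmed2*, *Tmed3*, *Tmed9*, and *Tmed10*, had log2 fold changes of -0.40 to 0.50 and were not called. *Ero1lb* was 52.9 and 67.5 in cKO against 13.2 and 9.90 in WT (2.38, SE 0.23, adjusted p from limma 0.0184), and *Fkbp11*, a prolyl isomerase of the ER, was 27.6 and 25.9 against 4.78 and 6.24 (2.27, SE 0.22, adjusted p from limma 0.0180).

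Some granule genes and 2 of 13 acinar transcription factors rose as well. Of 15 genes tested in a list of the zymogen granule, exocytosis, and secretagogue receptors, 9 were above 0 and 6 below, and *Zg16* and *Gal* rose, with a median of 0.25 that was -0.64 as deposited. *Zg16*, a lectin of the zymogen granule membrane, was 6191 and 7304 in cKO against 1484 and 1075 in WT, and *Serpini2*, a pancreas serpin, was 454 and 366 against 35.0 and 44.8 (log2 fold change 3.36, SE 0.21, adjusted p from limma 0.0127). *Spink1*, the trypsin inhibitor of acinar cells, was 1863 and 1418 against 652 and 591. *Bhlha15* (Mist1), the bHLH factor of the mature secretory acinar cell, was 29.0 and 26.9 in cKO against 5.37 and 2.43 in WT (2.91, SE 0.38, adjusted p from limma 0.0350), and *Creb3l1*, a membrane-bound factor of secretory cells, was 8.42 and 6.38 against 2.30 and 1.86 (1.77, SE 0.25, adjusted p from limma 0.0419). In saline libraries these 11 genes had log2 fold changes of -0.14 to 0.38. Other acinar transcription factors were not called, and *Ptf1a* was 10.4 and 7.92 against 5.86 and 4.1, *Gata4* was 6.28 and 10.7 against 3.51 and 2.19, and *Nr5a2* was 7.59 and 11.2 against 5.77 and 4.66. The median of the 13 acinar factors was 0.62 with 10 above 0 and that of 30 genes of the ER translocon, glycosylation, and vesicle transport was 0.50 with 22 above 0, and as deposited these medians were -0.20 and -0.45. The 8 acinar markers summed to 191800 and 218600 in cKO and 74050 and 76320 in WT. Their median log2 fold change was 1.405, with 0.45 as deposited and 0.26 with quantile normalization. The part of these markers in the increases of secretory genes was not tested.

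The genes that rose included 11 of amino acid and one-carbon metabolism, grouped after the calls were seen. The exocrine pancreas uses large amounts of amino acids for enzyme synthesis and holds much glycine and creatine metabolism. *Cth*, cystathionine gamma-lyase, which makes cysteine, had the largest change among them, at 10.5 and 4.96 in cKO and 0.272 and 0.354 in WT (log2 fold change 4.16, SE 0.39, adjusted p from limma 0.0180). The preceding enzyme of transsulfuration, *Cbs*, was 22.2 and 25.2 against 7.96 and 8.93 (1.48, SE 0.20, adjusted p from limma 0.0377). *Aldh1l2* and *Mthfd2* encode mitochondrial folate enzymes. *Aldh1l2* was 6.52 and 2.95 in cKO against 0.182 and 0.365 in WT (3.63, SE 0.46, adjusted p from limma 0.0331), and *Mthfd2* was 10.7 and 8.50 against 3.12 and 3.09 (1.58, SE 0.22, adjusted p from limma 0.0403). *Gamt*, the second enzyme of creatine synthesis, was 16.2 and 10.2 against 3.36 and 2.32 (2.16, SE 0.31, adjusted p from limma 0.0451), and *Gatm*, the first, was 47.6 and 28.5 against 20.4 and 4.76 and was not called. The glutamine and glycine transporter gene *Slc38a5* was 8.49 and 9.34 against 1.0 and 1.29 (2.86, SE 0.23, adjusted p from limma 0.0156).

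With saline, the genotypes overlapped for *Cth* and *Aldh1l2*. With all 8 libraries scaled together, *Cth* was 9.35 and 4.08 in cKO against 2.44 and 5.06 in WT with saline, and 7.54 and 3.49 in cKO and 0.193 and 0.249 in WT with FAEE-SAP. *Aldh1l2* was 10.5 and 3.75 in cKO against 3.97 and 5.70 in WT with saline, and 4.67 and 2.08 in cKO and 0.129 and 0.257 in WT with FAEE-SAP. For both genes the WT FAEE-SAP libraries stood below all others. The interaction did not pass, at 3.24 for *Cth* (adjusted p from limma 0.201) and 3.10 for *Aldh1l2* (adjusted p from limma 0.228). Other called genes of this class were *Aass* and *Dbt*, which degrade lysine and branched-chain amino acids, *Gcat*, *Abat*, and *Ggh*, with log2 fold changes of 1.68 to 2.94. Of 23 genes tested in a list of serine, one-carbon, transsulfuration, and creatine synthesis, 19 were above 0 and 5 rose, none fell, with a median of 0.85, which was -0.11 as deposited. *Phgdh*, *Psat1*, and *Shmt2* of serine and glycine synthesis were not called, with *Phgdh* at 36.1 and 25.9 against 10.7 and 17.4 (adjusted p from limma 0.139). Among 16 amino acid transporters only *Slc38a5* passed, with a median of 0.53 that was -0.37 as deposited, and *Slc7a8* (30.9 and 89.3 against 21.0 and 18.7) varied within cKO.

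**Figure D3:**
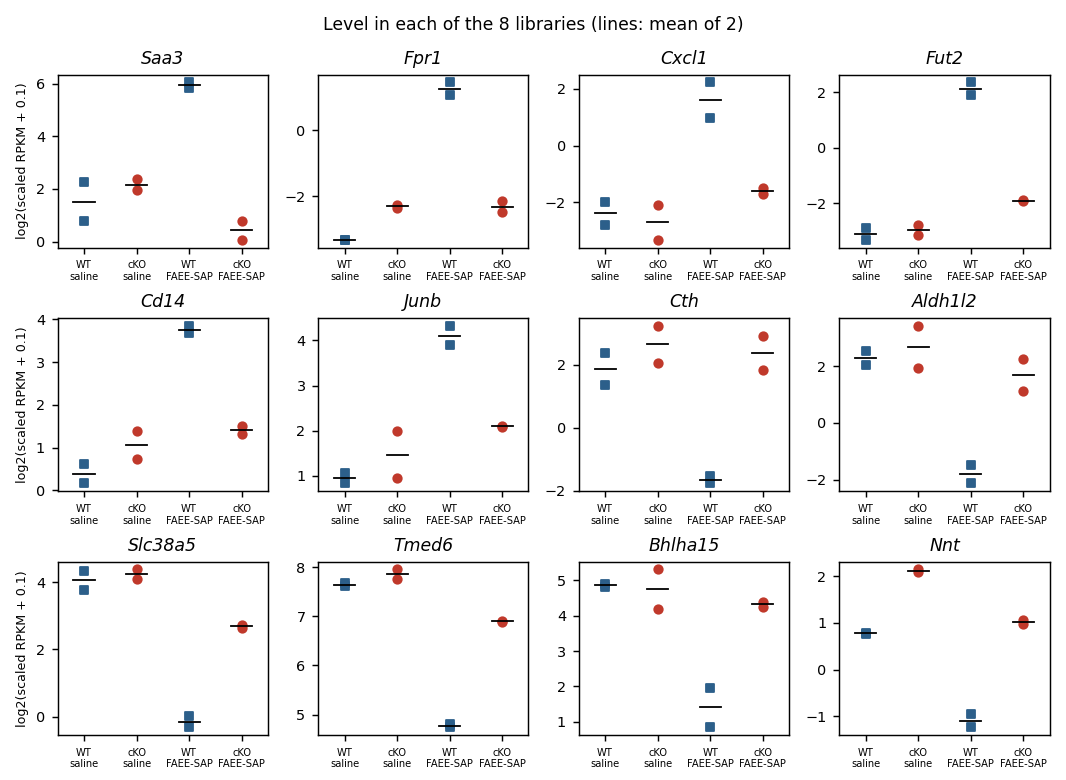
Log2 of scaled RPKM + 0.1 (y axis, its own range in each panel) of 12 genes in the 2 libraries of each of the 4 groups (x axis), all 8 libraries scaled together, with squares for WT, circles for cKO, and lines at the mean of 2. *Saa3*, *Fpr1*, *Cxcl1*, *Fut2*, *Cd14*, and *Junb* are highest in the WT FAEE-SAP libraries, *Cth*, *Aldh1l2*, *Slc38a5*, *Tmed6*, and *Bhlha15* are lowest there, and *Nnt* is lower in WT than in cKO with either treatment.

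Most immunoglobulin genes tested had a log2 fold change above 0, few were called, and the cKO libraries differed from each other. Of 395 immunoglobulin genes in the files, 136 were tested, 111 had a log2 fold change above 0, and 25 were below. The median was 1.19, and 0.34 as deposited. Of the 136, 15 rose and none fell, where 0.863% of all genes tested were called higher. Segments such as *Ighv5-9-1* and *Ighv1-34* reached the RPKM minimum in the cKO libraries alone and had to lie above 0. The count above 0 and the median hold such segments, so they do not by themselves show an increase. The summed level of the 395 genes was 1061 and 553 in cKO against 417 and 323 in WT. *Ighg2c*, the constant region of IgG2c, was 15.7 and 11 in cKO against 1.28 and 1.41 in WT (chromosome 12, 113285325 to 113288932; log2 fold change 3.19, SE 0.25, adjusted p from limma 0.0156). With saline its log2 fold change was 2.48 (adjusted p from limma 0.999), and the interaction was 0.59 (adjusted p from limma 0.856). *Igha*, the constant region of IgA, was 26 and 28.7 against 9.15 and 11.4 (1.41, SE 0.21, adjusted p from limma 0.0451), while *Ighm* was 104 in 1 cKO library and 32 in the other, against 34.9 and 33.6 in WT. *Ighg1* overlapped between the genotypes, and *Ighg3* was 7.45 and 1.91 in cKO against 11.4 and 5.19 in WT. The 13 other called genes were variable segments, which are close paralogs that could share reads, with log2 fold changes of 1.99 to 4.68. The plasma cell gene *Jchain*, which joins IgA and IgM units, was 17.7 and 9.76 against 4.64 and 3.67 (adjusted p from limma 0.0897), and all 5 plasma cell markers tested were above 0. All 6 B cell markers tested were below 0 and none was called, such as *Cd79a* at 8.25 and 3.91 against 8.63 and 7.24. The summed level of B cell markers was 22.6 and 10.7 in cKO against 22.3 and 17.6 in WT and that of T cell markers was 24.9 and 8.66 against 17.2 and 15.4, so both were lowest in cKO replicate 2. The part of these cells in the immunoglobulin values was not tested.

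The genes that rose included 6 of islet hormones and granules, grouped after the calls were seen. Of these, 0 were called without cKO replicate 2, 2 without cKO replicate 1, and 1 with the values as deposited. Of 6 islet markers tested, 5 were above 0 and 3 rose. *Gcg* (glucagon) was 38.7 and 47.3 in cKO against 13.9 and 12.7 in WT (log2 fold change 1.68, SE 0.20, adjusted p from limma 0.0272), and *Sst* (somatostatin) was 11.4 and 12.5 against 3.40 and 3.34 (1.80, SE 0.20, adjusted p from limma 0.0244). *Iapp*, the amyloid peptide of beta cells, was 65.1 and 57.5 against 26 and 23.9 (1.29, SE 0.18, adjusted p from limma 0.0410), and *Ins2* at 294 and 314 against 108 and 157 was not called (adjusted p from limma 0.0779). *Scg3* and *Ptprn2*, proteins of hormone granules, and *Ttr*, a thyroxine carrier made in islets, rose too, and *Ppy* overlapped between the genotypes. *Gal*, the neuropeptide galanin, was 52.5 and 45.5 in cKO against 6.95 and 8.11 in WT (2.69, SE 0.20, adjusted p from limma 0.0152). With all 8 libraries scaled together, *Gal* was 72.7 and 75.5 in cKO against 65.7 and 58.8 in WT with saline, and 37.7 and 32.1 in cKO and 4.93 and 5.70 in WT with FAEE-SAP, and its interaction was 2.44 (adjusted p from limma 0.0380). *Egf*, a growth factor of the epithelium, was 2.93 and 2.97 against 0.687 and 0.825 (1.84, SE 0.24, adjusted p from limma 0.0350). Its receptor family was not called, with *Erbb3* at 1.83 and 6.36 in cKO and 13.6 and 29.2 in WT (adjusted p from limma 0.131).

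**Figure D4:**
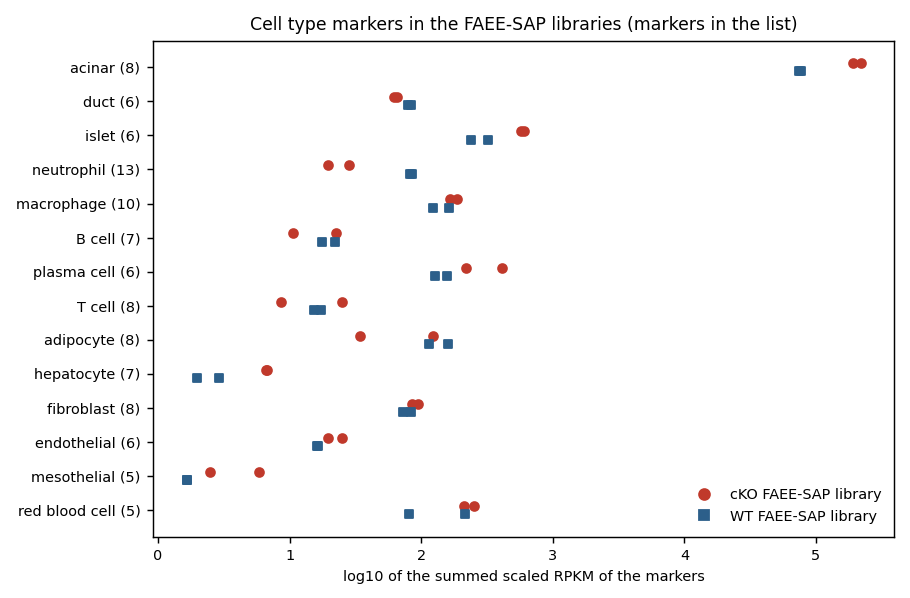
Log10 of the summed scaled RPKM of 14 lists of cell type markers (y axis, number of markers) in the FAEE-SAP libraries (x axis), with circles for the 2 cKO and squares for the 2 WT libraries. Acinar, islet, macrophage, plasma cell, hepatocyte, fibroblast, endothelial, and mesothelial markers are higher in both cKO libraries. Duct and neutrophil markers are lower in both, and adipocyte, B cell, and T cell markers are lowest in cKO replicate 2.

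Other called genes had single functions or were given none. *Ifi27l2b* and *Gm4744*, listed on chromosomes 12 and 6, were among the largest increases. *Ifi27l2b* was 5.74 and 8.00 in cKO against 0.361 and 0.144 in WT, and *Gm4744* was 5.97 and 7.96 against 0.153 and 0.369. *Gm4744* (40948375 to 40951870) lies near *1810009J06Rik* (40964754 to 40968435), which was classed as a digestive enzyme. Whether *Gm4744* belongs in that class was not tested. With saline and all 8 libraries scaled together, *Gm4744* was 1.94 and 25.15 in cKO against 5.44 and 8.055 in WT. *4930539E08Rik* and *Wfikkn2*, a secreted inhibitor of TGF-β family ligands, were among the largest decreases, with *Wfikkn2* at 0.189 and 0.344 in cKO and 5.13 and 2.93 in WT (log2 fold change -3.47, SE 0.38, adjusted p from limma 0.0244). Genes of lipid handling divided, since *Lpl*, lipoprotein lipase, was 12 and 14.5 against 3.21 and 4.31 and *Lcat*, which esterifies cholesterol, was 4.71 and 6.62 against 1.36 and 1.07, while *Aacs*, acetoacetyl-CoA synthetase, was 1.08 and 0.879 against 3.80 and 5.29. *Nr1d1*, a repressor of the circadian clock, was 0.800 and 0.627 against 2.78 and 4.31 (-2.14, SE 0.30, adjusted p from limma 0.0425). *Dbp*, another clock gene, was 0.823 and 1.10 against 3.79 and 2.37, *Arntl* was 2.70 and 4.11 against 0.716 and 1.77, and neither was called. Of 15 clock genes tested, 6 were above 0 and 9 below. Their median of -0.20 turned to 0.20 without cKO replicate 1 and without WT replicate 2. *Gstm7*, a glutathione transferase with close paralogs, and *Thrb*, a thyroid hormone receptor, rose by log2 fold changes of 2.55 and 1.69.

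*Nnt*, the mitochondrial transhydrogenase that makes NADPH and is disrupted in the C57BL/6J strain, was higher in both cKO than in both WT libraries with either treatment and called only with FAEE-SAP. The methods of the study name C57BL/6J for the eggs in which the floxed line was made, so the higher level stood in the line with that stated origin. It was 2.78 and 2.64 in cKO against 0.587 and 0.466 in WT with FAEE-SAP (log2 fold change 2.17, SE 0.25, adjusted p from limma 0.0255). With all 8 libraries scaled together it was 4.15 and 4.31 in cKO against 1.63 and 1.6 in WT with saline, a log2 fold change of 1.29 (SE 0.15) with an adjusted p of 0.591 from limma. The interaction was 0.77 (adjusted p from limma 0.297). The close paralogs *Tmem254a*, *Tmem254b*, and *Tmem254c*, which could share reads, had log2 fold changes of -1.23, -1.42, and -1.48 with FAEE-SAP and -1.92, -2.18, and -0.98 with saline, and were not called. The part of strain in the other changes was not tested, and strain and genotype cannot be told apart in these groups.

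**Figure D5:**
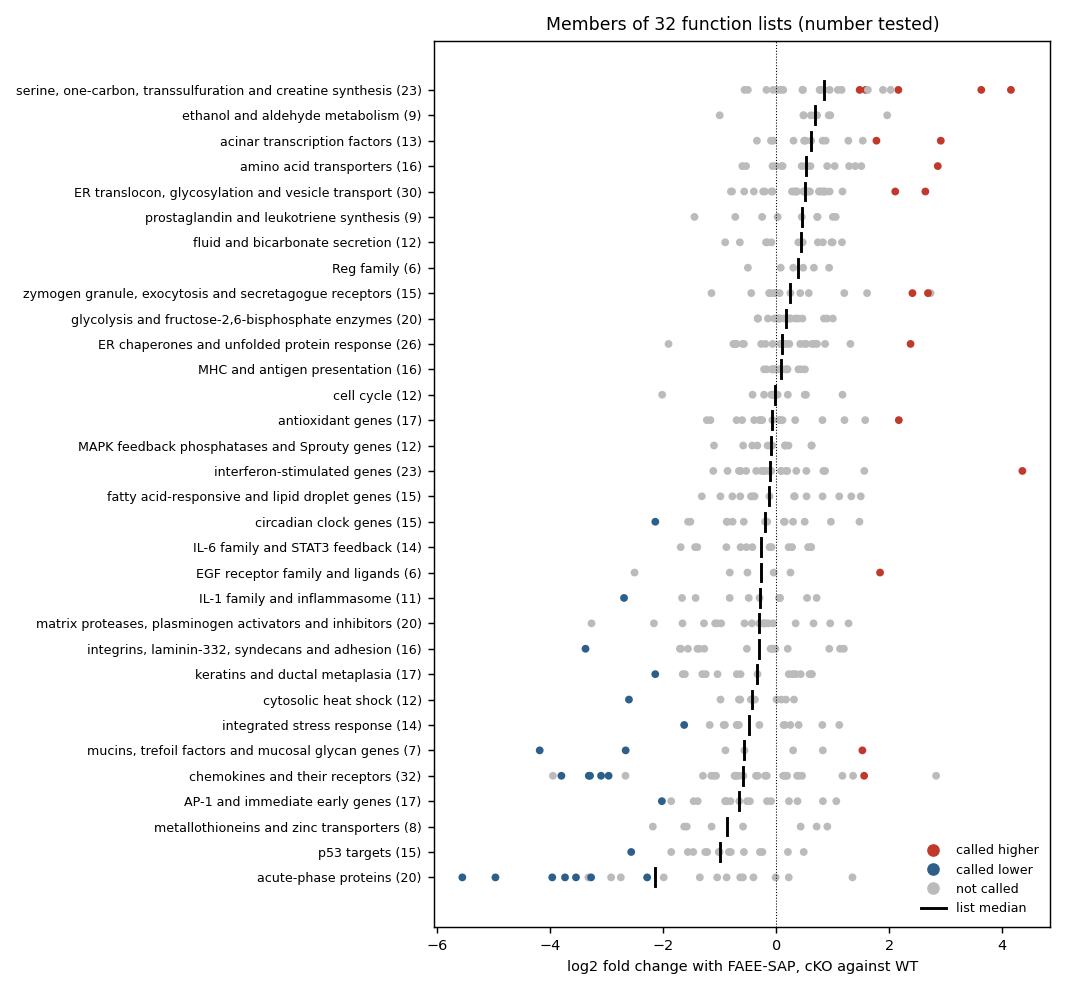
Log2 fold change with FAEE-SAP, cKO against WT (x axis), of the tested members of 32 lists of genes by function (y axis, number tested), with red points for genes called higher, blue for genes called lower, gray for genes not called, and a bar at the median. Acute-phase proteins (median -2.14) lie lowest and serine and one-carbon genes (0.85) highest. With the values as deposited all genes shift by about -0.9, so the 12 medians between 0 and 0.85 change sign.

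Several functions with a known place in pancreatitis had no called gene. Over all genes tested 0.863% were called higher and 0.409% lower, so a short list without a call is not shown to be unchanged. None of 20 genes of glycolysis and fructose-2,6-bisphosphate metabolism, the pathway that PFKFB3 serves, passed, and their median of 0.17 was -0.76 as deposited. *Pkm* was 32 and 31.1 in cKO against 33.0 and 29.7 in WT, and *Ldha* was 21.3 and 16.2 against 17.1 and 19.3. None of 16 genes of antigen presentation, 12 cell cycle genes, 12 genes of fluid and bicarbonate secretion, 20 matrix proteases and inhibitors, or 12 genes of MAPK feedback passed. For the matrix proteases and inhibitors, libraries of the genotypes did not overlap for 11 genes lower and 4 higher in cKO. Over all genes tested this held for 25.7% and 26.1%. In ethanol and aldehyde metabolism, 8 of 9 genes were above 0 (median 0.69, -0.26 as deposited) and none passed. Of these 9, 7 were higher and 1 lower in cKO without overlap. *Ces1d*, a carboxylesterase, was 5.5 and 10.01 against 1.77 and 1.89 (adjusted p from limma 0.0654). Metallothioneins varied within a genotype, with *Mt1* at 241 and 1319 in cKO and 1049 and 1482 in WT, and the list median of -0.87 was -0.10 without cKO replicate 1 and -0.13 without WT replicate 2. Fatty acid and lipid droplet genes (15 tested) and genes of prostaglandin and leukotriene synthesis (9 tested) held no called gene either. The zinc importer gene *Slc39a8* was 2.87 and 4.17 against 12.1 and 21.3 (adjusted p from limma 0.0551).

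The *Reg* genes, secreted lectins that acinar cells make under stress, also passed nowhere with FAEE-SAP. *Reg3b* was 8486 and 11960 in cKO against 8288 and 6313 in WT, and *Reg2* was 13510 and 15840 against 8649 and 6751 (log2 fold change 0.94, adjusted p from limma 0.0858). The median of the 6 genes tested was 0.39 with FAEE-SAP and -1.97 with saline, where *Reg3g* had a log2 fold change of -3.46 and none was called. The FAEE-SAP median was -0.57 as deposited, -0.72 with quantile normalization, and 0.11 to 0.67 with 1 library left out. The genotype difference of *Reg2* was 2.34 higher on the log2 scale with FAEE-SAP than with saline and passed as an interaction, while for the other members tested it did not.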

How the data were processed

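Total RNA of 8 mouse pancreata libraries (cKO or WT, saline or FAEE-SAP, 2 each) was sequenced as paired-end reads from a directional kit. The authors trimmed reads with fastp, mapped them to GRCm38.p6 with CLC Genomics Workbench, and deposited RPKM for 48709 genes per library. How reads of overlapping genes or paralogs were counted is not given in the sources used here. No counts were used. Library totals were worked out from the steps of low values, where 84.1% to 85.6% of values under 20 reads were whole within 0.1, so reads per gene are approximate and intervals cover counting error only. Symbols matched GENCODE vM21 for 46325 genes (95.1%).

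RPKM was scaled by the median of ratios, and genes with at least 0.5 in at least 2 of the libraries compared were tested on log2(scaled RPKM + 0.1), which understates the change of low genes, with limma 3.58.1 in R 4.3.3 using an intensity trend. A call needed a Benjamini-Hochberg adjusted p under 0.05 and a 2-fold change. A gene could reach the minimum in 1 genotype alone, which favors a change toward that genotype and bears on the counts of direction in lists. The FAEE-SAP fit used its 4 libraries, saline its own 4, and the interaction all 8. The code was tested on simulated data. Named genes were the 12 largest called increases and decreases and up to 4 called members of each of 32 lists. Also named were the most abundant members of the lists with the most extreme medians, *Pfkfb3*, *Nnt*, and *Tmem254a* to *Tmem254c*. The largest changes were taken among genes without overlap of the genotypes and with a mean deposited RPKM of at least 1 in the higher group. They held at most 2 immunoglobulin segments and no gene classed as a digestive enzyme. Other named genes were chosen after their values were seen. Members, lists, and tests were chosen with earlier results of these data known. Alternatives were other scalings, filters, pseudocounts, no trend, a block, and leaving out each library. Promoters were RefSeq sequences of the same build, searched on both strands for 6 motifs: TTGCNNAA (C/EBP), GGANTTTCC (kappaB), TTCNNNGAA (STAT), CATATG, TGACGTGG, and TGATGCAA.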

Additional observations from a re-analysis of the deposited data

Results flagged for a closer look

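The genotype difference (cKO minus WT, log2 scale) differed between FAEE-SAP and saline for 8 of 11133 genes tested in the limma interaction model over 8 libraries. For 3 genes it was more negative with FAEE-SAP, by -6.17 for *Saa3*, -4.60 for *Fpr1*, and -4.17 for *Fut2* (adjusted p from limma 0.0413, 0.0380, and 0.0413). For 5 genes it was more positive, by 1.91 for *Tmed6*, 2.34 for *Reg2*, 2.44 for *Gal*, 2.86 for *Clps*, and 3.11 for *Igkv4-68* (adjusted p from limma 0.0413, 0.0413, 0.0380, 0.00722, and 0.0413). *Clps*, which encodes the colipase that pancreatic lipase needs, was 11080 and 11440 in cKO against 1488 and 1313 in WT with FAEE-SAP, and 21610 and 23160 against 20770 and 19500 with saline, as RPKM scaled over 8 libraries. *Reg2* was 9691 and 11160 in cKO against 6138 and 4739 in WT with FAEE-SAP, and 343 and 329 against 971 and 807 with saline, so the direction of its genotype difference turned, and neither difference was called by itself. *Igkv4-68*, a kappa variable segment with close paralogs, was 3.25 and 2.69 against 1.09 and 0.681 with FAEE-SAP and 0.758 and 0.851 against 2.46 and 2.25 with saline.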

How the results depend on the processing

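Of 95 genes higher and 45 lower in cKO with FAEE-SAP, quantile normalization left 43 and 35, no intensity trend 27 and 30, and no filter 0 and 0. The values as deposited gave 73 and 4354, an unadjusted threshold 545 and 379, all 8 libraries in 1 model 185 and 110, and the replicate block 330 and 238, which included all 140 genes. Leaving out 1 library gave 0 to 75 higher and 0 to 64 lower. With saline (0 called) the count was 2 as deposited, 1 with quantile normalization, 59 at an unadjusted threshold, and 0 with the replicate block. The interaction (8 called) gave 791 as deposited, 25 with quantile normalization, 0 without the filter, 35 with an RPKM minimum of 2, 24 and 1 with pseudocounts of 1 and 0.01, 3 without the trend, 782 at an unadjusted threshold, 0 to 4 with 1 library left out, and 0 with the replicate block. The same replicate numbers in the labels do not by themselves pair the libraries. Deviations of same-numbered libraries correlated at 0.31 across genes with FAEE-SAP and at -0.40 with saline. Exchanging the numbers of the WT saline libraries in the block, which was chosen after seeing the data, gave 0 genes with saline and 68 in the interaction. The cause of these differences was not tested. Of 61 named genes, the 43 called kept their direction under each of 14 alternatives in which they were tested, and without either WT FAEE-SAP library 32 of them were. The sign of the list median changed for 12 of 32 lists as deposited, where all genes shift alike, 2 with quantile normalization, 3 with an RPKM minimum of 2, and 3 to 7 with 1 library left out. With 2 libraries a group and only a few reads in cKO for some of the genes that fell, fold changes of low genes are imprecise.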

Other observations

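Some genes differed more between libraries of a genotype than between the genotypes, and these were chosen after their values were seen. *Sesn1*, which encodes a sestrin of the nutrient and stress response, was 4.95 and 76.1 in cKO against 4.87 and 39.2 in WT with FAEE-SAP, and *Glul*, glutamine synthetase, was 27.4 and 363 against 53.8 and 97.0. The clock gene *Cry2* was 1.44 and 5.39 against 2.03 and 13.3, and *Per1* was 2.80 and 10.5 against 3.40 and 7.15. *Ddit4*, an inhibitor of mTORC1, was 26.6 and 64.7 against 39.5 and 154, and *Pdk4*, a kinase that restrains pyruvate dehydrogenase, was 11.5 and 28.7 against 14.7 and 54.4. For all 6 genes the library numbered 2 was the higher of its genotype.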
